A study of Mus musculus with 1 sample.

Results

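Immediate early genes and inducible heat shock genes were measured in single cells of the mouse pancreas, as RNA marks of recent activation or of the dissociation of the tissue. The 10 genes were taken by symbol from the 32285 genes listed: *Fos*, *Fosb*, *Jun*, *Junb*, *Jund*, *Egr1*, *Atf3* and *Ier2* as immediate early genes, and *Hspa1a* and *Hspa1b* as heat shock genes. All 10 were detected. The data are 1 droplet library of the Scap f/f genotype, labelled wildtype, with both *Scap* alleles floxed and no Cre, made from the pooled pancreata of 5 to 6 untreated mice aged 2 weeks, with males and females in equal number. The tissue had been digested with collagenase P at 37 °C for 30 minutes and passed through a dead cell removal kit before capture. Mice lacking *Scap* were not analysed here. The pooled animals gave a single library without replicates, so samples could not be compared by a test, and all intervals given are exact 95% intervals that cover counting error only.

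Immediate early genes are transcribed within minutes of a stimulus, from factors that the cell already holds. *Fos* and *Fosb* encode Fos proteins and *Jun*, *Junb* and *Jund* encode Jun proteins, which pair to form the transcription factor AP-1. *Egr1* encodes a zinc finger transcription factor, *Atf3* a stress-induced factor of the same leucine zipper superfamily as AP-1, and *Ier2* a nuclear protein of the early response. *Hspa1a* and *Hspa1b* encode the stress-inducible Hsp70 chaperone, which binds unfolded proteins and is induced through heat shock factor 1. Both groups are known to rise when tissue is taken apart with enzymes at body temperature, so in a dissociated library their RNA can date from the animal or from the digestion.

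On build GRCm38, the 10 genes lie on 7 chromosomes. *Fos* is at chr12:85473890-85477273, *Fosb* at chr7:19302696-19310051, *Jun* at chr4:95049034-95052222 and *Atf3* at chr1:191170296-191218039. Chromosome 8 holds 3 of them, *Junb* at chr8:84974484-84978718, *Ier2* at chr8:84661331-84662852 and *Jund* at chr8:70698949-70700616. *Hspa1b* at chr17:34956436-34959238 and *Hspa1a* at chr17:34969190-34972156 are neighbours on the minus strand, with 9951 bases between them. *Jun*, *Jund*, *Ier2* and both *Hspa1* genes have 1 exon in all annotated transcripts. The *Hspa1* genes are near-identical over much of their length: 63.8% of the 31-base stretches of the *Hspa1a* transcript and 67.5% of those of *Hspa1b* also occur in the other. In the last 400 bases, where a 3′ library takes most of its reads, they share none of 370 such stretches, so the ends tell the copies apart.

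The RefSeq promoter windows (build GRCm38.p6) matched 8 of the 10 genes. The 250 bases before the transcription start of 3 AP-1 genes and of the *Hspa1* pair are shown because the levels described further on turn on these genes. Capitals mark TGACG, the core of a cyclic AMP response element, TGACATCA, the AP-1 site type of the *Jun* promoter, the TATA box TATAAA, the CCAAT box and GAANNTTC, a pair of heat shock element units, each searched on both strands.
*Fos*, chr12:85473640-85473889, plus strand: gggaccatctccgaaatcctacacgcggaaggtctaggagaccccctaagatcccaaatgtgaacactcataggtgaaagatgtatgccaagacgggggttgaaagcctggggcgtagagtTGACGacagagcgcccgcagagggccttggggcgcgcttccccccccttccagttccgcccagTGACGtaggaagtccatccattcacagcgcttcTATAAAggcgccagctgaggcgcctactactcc
*Jun*, chr4:95052223-95052472, minus strand: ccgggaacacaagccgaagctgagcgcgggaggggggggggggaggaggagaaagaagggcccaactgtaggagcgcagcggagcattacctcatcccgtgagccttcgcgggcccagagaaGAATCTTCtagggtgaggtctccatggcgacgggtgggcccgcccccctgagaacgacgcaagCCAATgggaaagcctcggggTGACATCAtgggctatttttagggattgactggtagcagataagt
*Junb*, chr8:84978749-84978998, minus strand: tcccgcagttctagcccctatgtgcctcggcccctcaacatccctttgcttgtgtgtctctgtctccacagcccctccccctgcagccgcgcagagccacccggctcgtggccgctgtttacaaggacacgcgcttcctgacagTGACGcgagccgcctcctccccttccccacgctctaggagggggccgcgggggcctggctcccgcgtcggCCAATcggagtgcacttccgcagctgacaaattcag
*Hspa1a*, chr17:34972157-34972406, minus strand: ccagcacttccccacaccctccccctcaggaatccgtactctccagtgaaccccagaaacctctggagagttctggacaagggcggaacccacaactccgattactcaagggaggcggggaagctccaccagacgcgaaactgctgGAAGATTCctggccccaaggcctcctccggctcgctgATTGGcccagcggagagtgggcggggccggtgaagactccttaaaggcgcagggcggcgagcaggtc
*Hspa1b*, chr17:34959239-34959488, minus strand: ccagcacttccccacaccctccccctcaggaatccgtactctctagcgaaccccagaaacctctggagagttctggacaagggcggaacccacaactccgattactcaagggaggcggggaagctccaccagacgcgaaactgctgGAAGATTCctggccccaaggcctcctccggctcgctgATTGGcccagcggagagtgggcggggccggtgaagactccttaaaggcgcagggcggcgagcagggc
TGACG was found in 4 of the 8 windows, those of *Fos*, *Fosb*, *Junb* and *Atf3*, and in 17.8% of all 32851 promoter windows of the same length. In *Fos* it began 129 and 66 bases before the start, and in *Junb* 106 bases before it. TGACATCA was found in *Jun* alone, 45 bases before the start, and in 2.93% of all windows. GAANNTTC was found in *Hspa1a* and *Hspa1b*, 104 bases before each start, and in *Jun* 128 bases before it, against 6.69% of all windows. CCAAT was in *Jun*, *Junb* and both *Hspa1* windows and in 33.8% of all windows, and TATAAA in *Fos* and in 12.4%. The windows of *Hspa1a* and *Hspa1b* differed at 3 of 250 bases. A match is a description of the letters and shows no binding.

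The table held 11789 barcodes and 51540177 UMIs (unique molecular identifiers, each marking 1 captured transcript). Barcodes with over 800 and under 100000 UMIs and under 15% mitochondrial UMIs were kept, which left 10947 cells with 49202966 UMIs. Cells were assigned to a class by panels of marker genes, with at least 3 or 4 markers of 1 panel detected. The panel also had to hold a least share of the cell's UMIs. That share was 20% for red blood cells, 10% for acinar cells, 1% for fibroblasts and 0.1% to 0.5% for the other classes described. The marker UMIs that a gate requires count in the total against which the other genes of that class are measured. The 12 classes of at least 30 cells held 9489 cells. They were 5888 fibroblasts, 978 acinar cells, 876 T cells, 460 mesothelial cells, 402 red blood cells, 381 B cells, 206 endothelial cells, 92 smooth muscle cells, 71 Schwann cells, 50 duct-like epithelial cells, 49 dendritic cells and 36 pericytes. Each name means that the cells carry that class's markers. The Schwann class is named from its panel, of which 8 of 9 markers were highest in the class. None of the 9 was among its 10 leading genes by fold, but those were taken only from genes above a minimum level over all kept cells. The class held 165631 of the 49202966 UMIs, so markers confined to it can fall below that level. The list of leading genes is therefore no test of the name. Of the 106 panel markers, 102 were highest in their own class, and the 4 others were *Krt7* and *Tspan8* of the duct-like panel, *Dcn* of the fibroblast panel and *Mbp* of the Schwann panel. The classes were gated on these same markers, so neither this count nor the 8 of 9 Schwann markers is a test of the names.

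Over all kept cells, the 8 immediate early genes held 516330 UMIs, 1.05% of the total, or 10494 UMIs per 1000000 UMIs (CPM). *Fos* was the 29th most counted gene of the library at 3255 CPM, followed among these genes by *Egr1* (1675 CPM), *Jun* (1451 CPM), *Jund* (1221 CPM), *Fosb* (1147 CPM), *Junb* (975 CPM), *Ier2* (440.3 CPM) and *Atf3* (329.9 CPM). *Hspa1a* and *Hspa1b* were rare, at 37.7 and 15.9 CPM. Since a 3′ library gives 1 UMI per captured transcript, these levels were not divided by gene length.

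**Figure D1:**
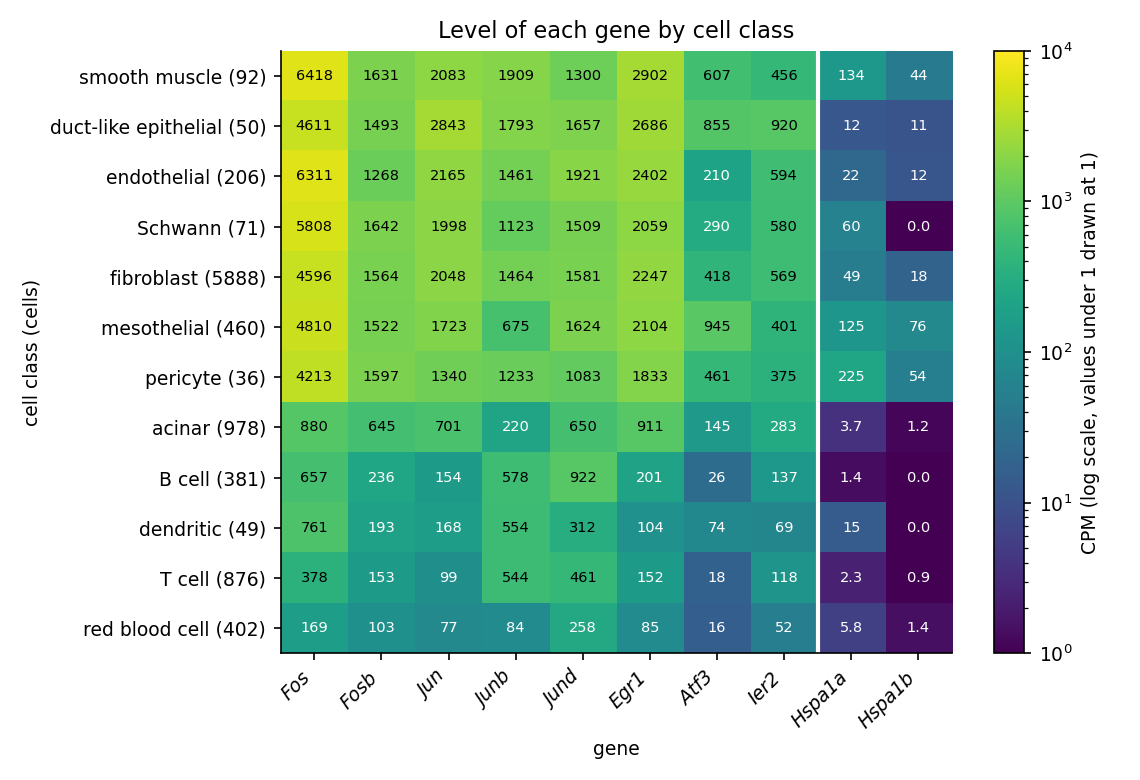
Level of each of the 10 genes (columns) in each of the 12 cell classes (number of cells in brackets), in CPM, coloured on a log scale, with the immediate early genes left of the white line and the *Hspa1* genes right of it. The 7 upper classes, from smooth muscle to pericyte, hold *Fos* at 4213 to 6418 CPM, while the 5 lower classes, from acinar to red blood cell, hold it at 169 to 880.0 CPM.

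The summed level of the 8 immediate early genes split the classes into a high and a low group. It was 17306 CPM (16906 to 17714) in smooth muscle cells, 16858 CPM (16614 to 17105) in duct-like epithelial cells, 16332 CPM (16103 to 16564) in endothelial cells and 15009 CPM (14425 to 15611) in Schwann cells. Fibroblasts held 14487 CPM (14435 to 14539.8), mesothelial cells 13803 CPM (13659 to 13948) and pericytes 12134 CPM (11437 to 12862). In each of these 7 classes at least 1.21% of all UMIs came from the 8 genes.

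The other 5 classes lay lower. Acinar cells, which make the digestive enzymes, held 4436 CPM (4399 to 4472), B cells 2911 CPM (2788 to 3038), dendritic cells 2235 CPM (2034 to 2451), T cells 1922 CPM (1864 to 1982) and red blood cells 844 CPM (777 to 916). Acinar and red blood cell markers made up 79.96% of the UMIs of red blood cells, and with those marker UMIs left out of the denominator red blood cells held 4214 CPM, more than T cells at 1940.0, dendritic cells at 2255 and B cells at 2941 CPM. The fibroblast level was 3.27-fold that of acinar cells and 7.54-fold that of T cells. Of the 11 pairs of neighbours in the order of classes, 2 had intervals that overlapped, smooth muscle with duct-like epithelial cells and Schwann cells with fibroblasts.

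The order within the high group depended on how cells were weighted. With each cell thinned to 800 UMIs, so that every cell counts alike, the smooth muscle level was 1.02-fold and the endothelial level 1.09-fold that of fibroblasts, against 1.19-fold and 1.13-fold in the summed counts. Duct-like epithelial cells, above fibroblasts in the summed counts, lay below them in 3 alternatives, at 12130.1 against 14743 CPM with an upper limit of 10000 UMIs per cell, 14804 against 14932 CPM as a mean over cells and 14550.0 against 14887 CPM when thinned. The acinar level as a ratio to that of fibroblasts was 0.306 (0.303 to 0.309) in the summed counts. It was 0.481 without the acinar and red blood cell marker UMIs in the denominator, where acinar markers made up 36.7% of the UMIs of acinar cells.

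**Figure D2:**
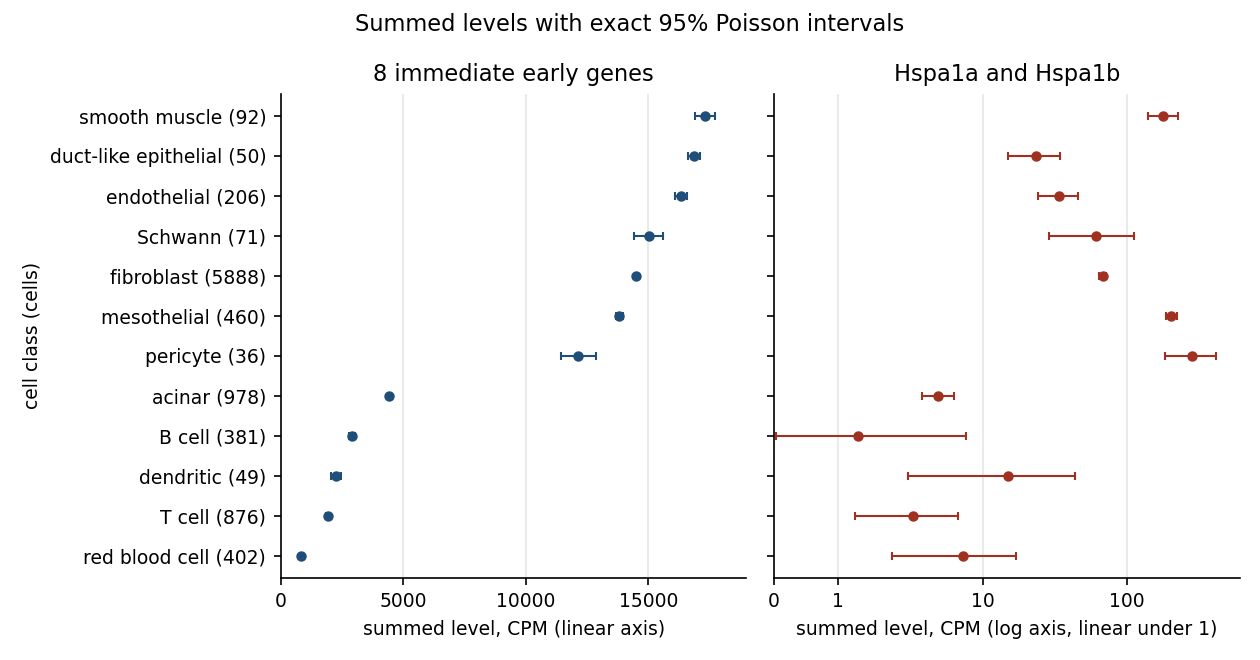
Summed level of the 8 immediate early genes (left, linear axis from 0) and of *Hspa1a* and *Hspa1b* (right, log axis, linear under 1) in CPM for each cell class, with the number of cells in brackets and exact 95% Poisson intervals as bars. The immediate early sum falls from 12134 CPM in pericytes to 4436 CPM in acinar cells, and in these summed counts the *Hspa1* sum is highest in pericytes, mesothelial and smooth muscle cells, at 178 to 279 CPM.

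Among the genes of the Fos proteins, *Fos* was highest in smooth muscle cells at 6418 CPM (6175 to 6668). Endothelial cells followed at 6311 CPM (6169 to 6455) and Schwann cells at 5808 CPM (5447 to 6187), and the intervals of these neighbours overlapped. In endothelial cells *Fos* ranked 4 among all genes by UMIs, in fibroblasts 10 and in T cells 303. It was 4596 CPM (4567 to 4626) in fibroblasts, 880.0 CPM (864 to 896) in acinar cells and 378 CPM (352 to 405) in T cells, where 147 CPM were left after an estimate of free RNA was subtracted. The same estimate left 0 CPM of *Fos* in red blood cells.

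*Fosb* was flatter over the high group. Its intervals overlapped along the order of 6 classes, from Schwann cells at 1642 CPM (1453 to 1849) to duct-like epithelial cells at 1493 CPM (1421 to 1568), and only endothelial cells lay lower among the 7, at 1268 CPM (1205 to 1334). In acinar cells *Fosb* held 645 CPM (631 to 659). That was 0.412 of its fibroblast level (0.403 to 0.423), while *Fos* held 0.191 of its own (0.188 to 0.195).

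The genes of the Jun proteins differed from each other. *Jun* was highest in duct-like epithelial cells at 2843 CPM (2743 to 2945), 1.39-fold the fibroblast level of 2048 CPM (1.34 to 1.44). With the upper limit of 10000 UMIs, which leaves out the 25 deepest of the 50 duct-like epithelial cells, the order turned, to 1696 CPM against 2046 CPM in fibroblasts. In T cells *Jun* lay at 98.5 CPM (85.7 to 113), with an interval that overlapped that of red blood cells at 76.8 CPM (57.5 to 100.4). Subtracting the free RNA estimate left no *Jun* in T cells and none in red blood cells, so it cannot show that T cells hold none. Without the marker UMIs in the denominator *Jun* was 383 CPM in red blood cells against 99.5 CPM in T cells. *Junb* was highest in smooth muscle cells at 1909 CPM (1778 to 2048) and duct-like epithelial cells at 1793 CPM (1714 to 1874), where it was 976 CPM with that upper limit. Mesothelial cells, which line the outer surface of the organ, held 675 CPM (643 to 708) of *Junb*, 0.461 of the fibroblast level (0.439 to 0.484), while their *Fos* was 1.05-fold that of fibroblasts (1.03 to 1.07). Acinar cells held 219.6 CPM (212 to 228) of *Junb*, less than T cells at 544 CPM (513 to 576).

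*Jund*, known for steadier expression than the other Jun genes, had the narrowest range in the summed counts. It was highest in endothelial cells at 1921 CPM (1843 to 2002) and lowest in red blood cells at 258 CPM (221 to 299). This was a 7.45-fold range, where those of the other 7 immediate early genes were 16.0-fold to 59.3-fold. *Jund* was narrowest in 9 of 10 settings. Without the marker UMIs in the denominator *Junb* was, from 1921 CPM in smooth muscle to 348 CPM in acinar cells, against 1942 to 314 CPM for *Jund*. B cells held 922 CPM (853 to 994), with an interval that overlapped that of pericytes at 1083 CPM (882 to 1315), and T cells held 461 CPM (433 to 491).

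*Egr1* was highest in smooth muscle and duct-like epithelial cells, at 2902 CPM (2739 to 3072) and 2686 CPM (2589 to 2786), and was the member with the most UMIs in acinar cells, at 911 CPM (895 to 928). In the 622 acinar barcodes under 10000 UMIs *Fos* was higher, at 636 CPM (605 to 668) against 539 CPM (511 to 569) of *Egr1*. *Atf3* had the widest range of the 8 genes in the summed counts. It reached 945 CPM (908 to 984) in mesothelial cells and 855 CPM (800.3 to 912) in duct-like epithelial cells, 2.26-fold (2.16 to 2.37) and 2.05-fold (1.91 to 2.19) the fibroblast level. Endothelial cells held 209.6 CPM (184 to 237) of it, 0.502 of the fibroblast level (0.441 to 0.569). *Ier2* was highest in duct-like epithelial cells at 920.4 CPM (864 to 979) and next in endothelial cells at 594 CPM (551 to 639.7). With the upper limit of 10000 UMIs the duct-like epithelial levels were 524 CPM of *Atf3*, 655 CPM of *Ier2* and 2759 CPM of *Fos*, and *Ier2* was then highest in endothelial cells.

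The make-up of the immediate early UMIs differed between classes. *Fos* held 27.4% to 38.7% of them in the 7 high classes and 34.1% in dendritic cells. In acinar cells *Egr1* held 20.5% (20.2 to 20.9) and *Fos* 19.8% (19.5 to 20.2). In the acinar barcodes under 10000 UMIs the order turned, with 1619 UMIs of *Fos* against 1373 of *Egr1*. In T cells *Junb* held 28.3% (26.9 to 29.7) and *Jund* 24.0% (22.7 to 25.3), and in B cells *Jund* held 31.7% (29.7 to 33.7). *Junb* and *Jund* together made up 52.3% (50.7 to 53.8) in T cells and 51.5% (49.4 to 53.7) in B cells, against 21.0% (20.9 to 21.2) in fibroblasts. *Atf3* held 6.85% (6.59 to 7.12) in mesothelial cells and 0.923% (0.654 to 1.27) in T cells.

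**Figure D3:**
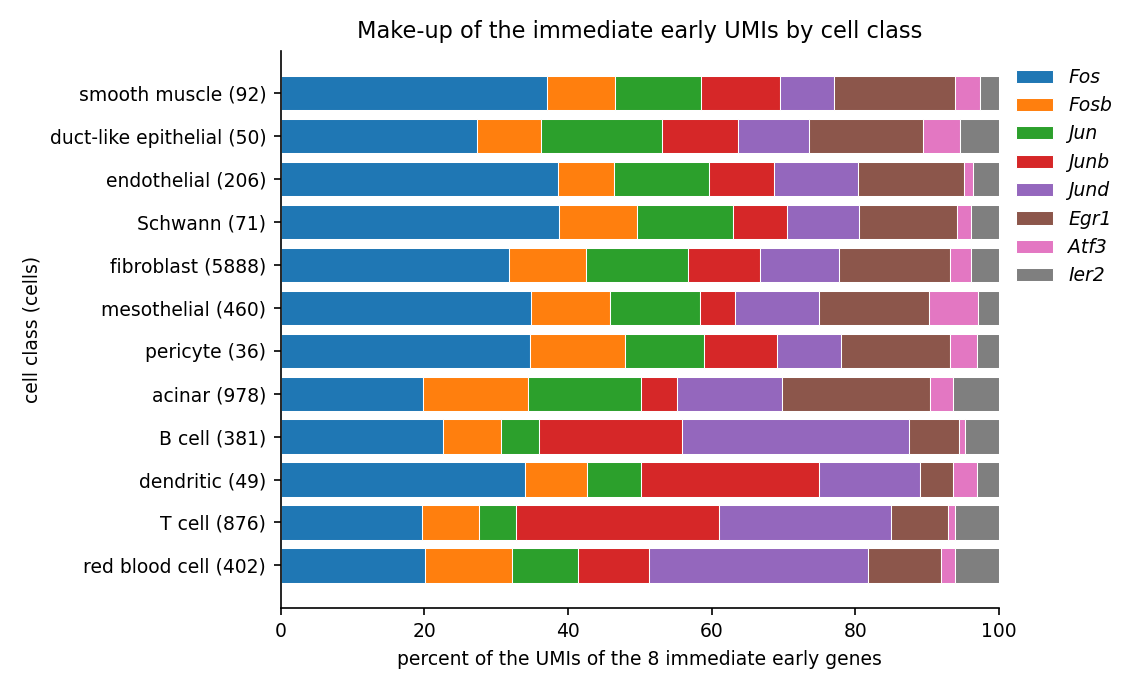
Percent of the UMIs of the 8 immediate early genes that each gene held in each cell class (bars stacked to 100, number of cells in brackets). *Fos* is the largest part in 8 of the 12 classes, *Junb* in T cells, *Jund* in B cells and red blood cells, and *Egr1*, over all acinar barcodes together, in acinar cells.

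*Hspa1a* and *Hspa1b* had another order of classes. Their summed level was 279 CPM (182 to 408) in pericytes, 202 CPM (185 to 219.8) in mesothelial cells and 178 CPM (139.5 to 224) in smooth muscle cells, and these 3 neighbours overlapped. The pericyte level rested on 26 UMIs in 14 of 36 cells, with 7 UMIs in 1 cell, and was 104 CPM when thinned. It was 222 CPM without the 1 pericyte that a doublet caller marked. Pericytes were highest in 8 of 10 settings, and mesothelial and smooth muscle cells in 1 each. Fibroblasts held 67.8 CPM (64.2 to 71.4), Schwann cells 60.4 CPM (29.0 to 111), endothelial cells 33.7 CPM (24.1 to 45.8) and duct-like epithelial cells 23.2 CPM (14.995 to 34.2). Duct-like epithelial and endothelial cells, which were among the 3 highest classes for the immediate early sum in the summed counts, held 0.342 (0.221 to 0.507) and 0.497 (0.353 to 0.680) of the fibroblast *Hspa1* level. The endothelial ratio turned to 1.00 when each cell was thinned to 800 UMIs, where 10 endothelial cells had an *Hspa1* UMI. The duct-like epithelial level was 0 CPM with the upper limit of 10000 UMIs and 0 CPM when thinned.

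In the low group the *Hspa1* genes were rare, and outside acinar cells they were near the limit of detection. Acinar cells held 63 *Hspa1* UMIs, or 4.92 CPM (3.78 to 6.30), T cells 7 or 3.27 CPM (1.31 to 6.74), B cells 1, dendritic cells 3 and red blood cells 5 or 7.24 CPM (2.35 to 16.9), which was 36.1 CPM without the marker UMIs in the denominator. Neighbours in the order of these 5 classes overlapped. The acinar ratio to fibroblasts, 0.0726 (0.0555 to 0.0935) in the summed counts, was 0.173 in the thinned counts and 0.114 without the marker UMIs in the denominator. *Hspa1b* had 0 UMIs in Schwann, B and dendritic cells, so its level there could be up to 22.3, 5.07 and 18.2 CPM by the exact interval.

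An *Hspa1* UMI was found in 198 of 460 mesothelial cells and 867 of 5888 fibroblasts, without thinning, at median depths of 3954 and 2669 UMIs per cell. In 31 mesothelial cells there were at least 5, which together held 45.9% of the 514 UMIs of the class, with 23 in 1 cell. Of the UMIs of both copies, *Hspa1a* held 72.8% (70.3 to 75.1) in fibroblasts and 62.1% (57.7 to 66.3) in mesothelial cells. The mesothelial *Hspa1b* level of 76.5 CPM (66.1 to 88.0) was 4.14-fold that of fibroblasts (3.47 to 4.94), and the *Hspa1a* level of 125 CPM (112 to 139.6) was 2.54-fold (2.23 to 2.88).

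Red blood cells, whose mature form has no nucleus, served as the class for background from free RNA. They held 0.882% acinar marker UMIs, 8.03% of the 10.98% in the whole library, and their immediate early sum was 8.05% of that of the library. That sum was not uniform within the class. It was 658 CPM (592 to 730) in 330 red blood cells under 1% mitochondrial UMIs and 1645 CPM (1417 to 1899) in 56 with 1 to 2%. With depth it went from 626 CPM (534 to 729) at 800 to 1500 UMIs to 1400 CPM (1179 to 1650) at 3000 to 6000 UMIs. T cells held 7.09% of the library's acinar share, B cells 8.32% and fibroblasts 6.25%. Immediate early RNA at those shares comes to 744 CPM of the 1922 CPM in T cells, 873 CPM of the 2911 CPM in B cells and 656 CPM of the 14487 CPM in fibroblasts. The make-up in red blood cells was not that of the library, with *Jund* at 30.5% (26.8 to 34.4) against 11.6% and *Fos* at 20.1% (16.9 to 23.6) against 31.01%. An estimate of free RNA, scaled to the acinar marker share, was subtracted from each class except acinar cells. The T cell ratio to fibroblasts then went from 0.133 (0.129 to 0.137) to 0.0859 for the immediate early sum. For the *Hspa1* sum it went from 0.0482 (0.0194 to 0.0997) to 0. In red blood cells the same estimate left 193 CPM of the immediate early sum and 0 CPM of *Fos*, *Jun*, *Egr1* and *Atf3*. For these genes the estimate was above the level measured in the background class, so it may take away too much in other classes. The part of free RNA in the levels of the low classes was not tested.

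Most cells of the largest class carried several of these transcripts. With each cell thinned to 800 UMIs, *Fos* was found in 90.4% (89.6 to 91.2) of fibroblasts, *Egr1* in 75.8%, *Jun* in 72.5%, *Atf3* in 22.1% and *Hspa1a* in 3.48%. In red blood cells, the background, where their own and acinar markers took most of the UMIs, *Fos* was found in 11.4% (8.50 to 14.97), *Egr1* in 6.22%, *Jun* in 3.48%, *Atf3* in 1.49% and *Hspa1a* in 0.249%. In T cells *Fos* was found in 24.2% (21.4 to 27.2), *Junb* in 30.4% and *Jun* in 6.05% (4.56 to 7.84), where the interval for *Jun* in red blood cells was 1.92 to 5.77%. Without thinning, *Fos* was found in 96.7% of fibroblasts, 45.2% of T cells and 18.7% of red blood cells, at median depths of 2669, 1760.0 and 1446 UMIs per cell.

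The spread over cells at equal depth was wide. A median fibroblast carried 12 immediate early UMIs among 800, with a 5th percentile of 2 and a 95th of 23, and 1.99% of fibroblasts carried none. The median was 13 in smooth muscle cells, 9 in mesothelial cells, 2 in acinar and B cells, 1 in T and dendritic cells and 0 in red blood cells. Endothelial cells had the widest upper range of the 12 classes, with a 95th percentile of 39 UMIs and a variance 11.2 times the mean, against 3.22 times in fibroblasts. At least 30 of 800 UMIs were immediate early in 18 of 206 endothelial cells (8.74%), against 0.510% of fibroblasts and 0.435% of mesothelial cells.

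These 18 endothelial cells, picked by their own level, are described without a test. They carried a mean of 43.9 immediate early UMIs of 800, and the other 188 a mean of 9.98, below the fibroblast mean of 11.9, while all 206 had a mean of 12.9. Leaving out cells picked for a high level lowers a mean by construction. The 18 cells had a median of 1272 UMIs and 2.60% mitochondrial UMIs, against 3458 and 1.95% in the others. *Fos* held 57.9% of their immediate early UMIs against 36.2%. Their nuclear RNA, summed as *Malat1*, *Neat1* and *Kcnq1ot1*, was 3436 CPM against 11241 CPM, and a doublet caller marked 4 of them against 6 of the others.

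**Figure D4:**
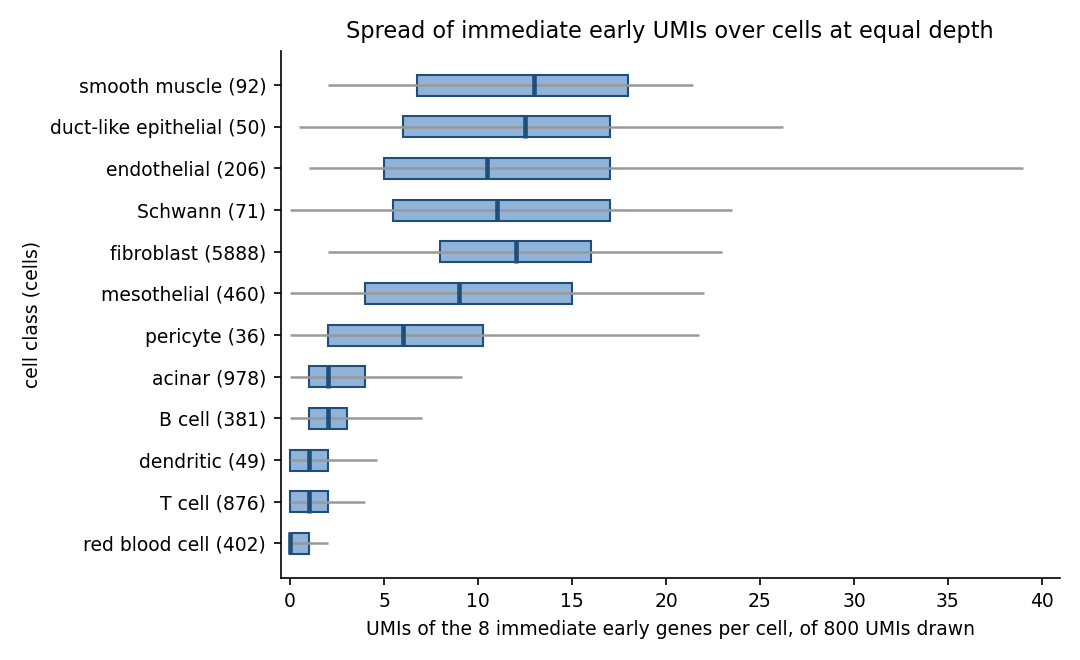
UMIs of the 8 immediate early genes per cell after each cell was thinned to 800 UMIs, by cell class (number of cells in brackets), with the median as a mark, the middle 50% of cells as a box and the 5th to 95th percentile as a line. The medians lie at 6 to 13 UMIs in the 7 upper classes and at 0 to 2 in the 5 lower ones, and the endothelial line reaches 39 UMIs.

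Within a class, immediate early transcripts tended to be found in the same cells. Among fibroblasts with a *Fos* UMI in the thinned counts, 80.2% (79.1 to 81.2) also had *Egr1* and 76.3% (75.1 to 77.4) *Jun*, against 34.2% (30.3 to 38.3) and 36.9% (32.9 to 41.0) of fibroblasts without one. Of the 56 ordered pairs of the 8 genes, 56 were higher among cells with the first gene with intervals apart in fibroblasts, 55 in acinar cells, 50 in mesothelial cells and 16 in endothelial cells. In T and B cells 34 and 30 of 49 pairs were higher, 3 and 4 of them with intervals apart, where the median thinned cell carried 1 and 2 immediate early UMIs. Other pairs of genes were not counted in this way, so these counts are not shown to be particular to the 8 genes. The acinar marker share, which differed between acinar barcodes, was not held equal. *Hspa1a* was found in 3.57% (3.09 to 4.10) of *Fos*-positive fibroblasts and 2.66% (1.496 to 4.35) of the rest. In mesothelial cells it was in 8.65% (5.99 to 11.99) of *Fos*-positive cells and in 0 of the 90 others, which allows a share of up to 4.02% by the exact interval. Most such pairs were not told apart. Of 16 pairs of an *Hspa1* gene given an immediate early gene, 2 were higher with intervals apart in mesothelial cells and 1 in fibroblasts. In acinar and endothelial cells 0 of 16 were, and in T and B cells 0 of 14.

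Over the 12 classes, the log2 levels of the 28 pairs of immediate early genes had Pearson's r of 0.70 (*Junb* with *Atf3*) to 0.99 (*Fosb* with *Egr1*). The 16 pairs of an immediate early with an *Hspa1* gene had r of 0.50 to 0.77. The classes share 1 library and its free RNA and differ in depth, so these coefficients are descriptions only.

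Depth and mitochondrial share moved with the level in some classes. In mesothelial cells the immediate early sum was 6831 CPM (6010.2 to 7732) in 28 cells of 800 to 1500 UMIs and 15739.9 CPM (15488 to 15995) in 59 cells of at least 10000 UMIs. It was 16255 CPM (16019 to 16494) in mesothelial cells with 1 to 2% mitochondrial UMIs and 10998 CPM (10808 to 11190.2) with 2 to 4%. In fibroblasts it went the other way with depth, from 15446 CPM (15224 to 15670.3) to 12499.5 CPM (12356 to 12645). In acinar cells it was 3031 CPM (2959 to 3103) below 1% mitochondrial UMIs and 5544 CPM (5409 to 5681) from 4 to 15%. Over all bins of at least 20 cells, the fibroblast level was 12499.5 to 15446 CPM and the T cell level 1281 to 2215 CPM.

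**Figure D5:**
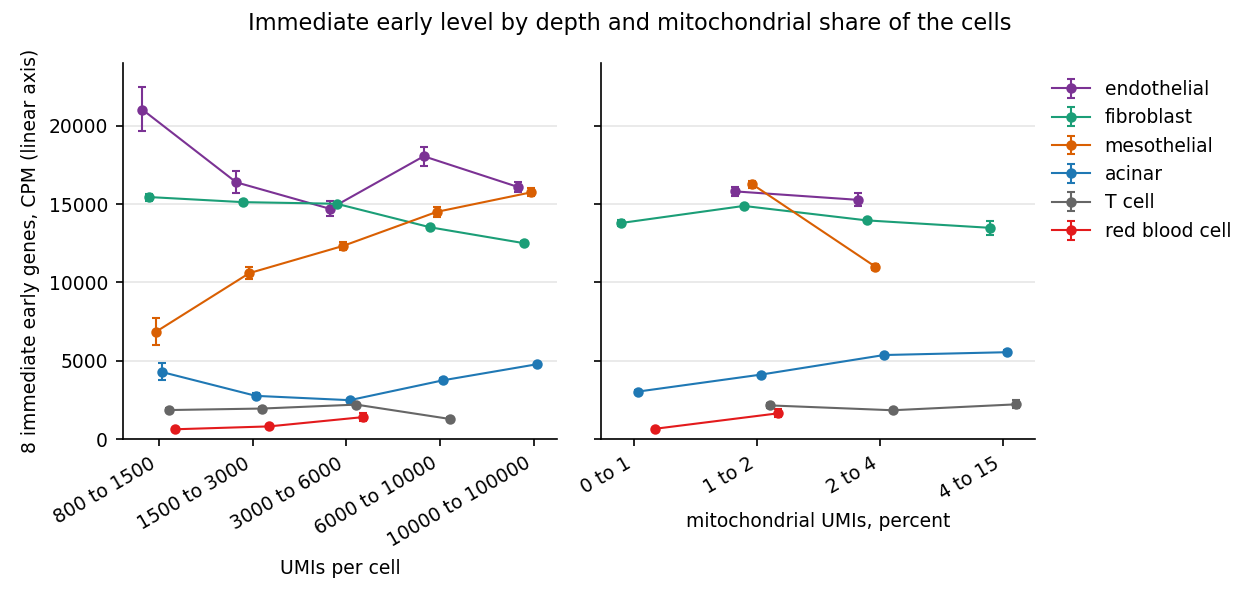
Summed level of the 8 immediate early genes in CPM (linear axis from 0) by bins of UMIs per cell (left) and of percent mitochondrial UMIs (right) for 6 cell classes, with exact 95% Poisson intervals and bins of under 20 cells left out. The mesothelial level goes from 6831 to 15739.9 CPM with depth, the fibroblast level from 15446 to 12499.5 CPM, and the T cell level has a highest bin of 2215 CPM.

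Acinar barcodes also differed by their nuclear RNA. The immediate early sum was 1682 CPM (1619 to 1746) in 349 acinar barcodes with under 0.1% nuclear RNA, 4206 CPM (4157 to 4255) in 379 with 0.1 to 0.5% and 5783 CPM (5713 to 5854) in 250 with at least 0.5%. Acinar markers took 48.3%, 38.2% and 30.1% of the UMIs of these 3 groups. With those UMIs left out of the denominator, the sums were 3253, 6807 and 8272 CPM.

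Fibroblast subgroups held unequal levels. The immediate early sum was 17715 CPM (17410.5 to 18023) in 194 fibroblasts with *Rspo3* and *Cxcl14*, 15148 CPM (14979 to 15318) in 466 with *Mfap4* and *Meox2* and 11249 CPM (11132 to 11368) in 537 with *Pi16* and *Pcolce2*. *Junb* had the same order, at 2252, 1671 and 926 CPM, while *Atf3* was highest in the last group at 502 CPM (478 to 528), against 369 CPM (326 to 416) in the first. The median depth was 3288, 3722 and 4654 UMIs per cell. Fibroblasts with cell cycle markers held 12016 CPM (11832 to 12202) against 14755 CPM (14698 to 14812) in those without, with *Junb* at 912 against 1516 CPM and *Ier2* at 322 against 598 CPM. CD4 T cells held 1897 CPM (1753 to 2049) and CD8 T cells 1649.5 CPM (1568 to 1734).

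Set against all genes, a gene was called when its level plus 5 CPM was at least 2-fold above or below that of the median class. The share of all 9434 genes of at least 10 CPM called the same way gives the background. In T cells 8 of the 10 members were lower, against 15.6% of genes, and in B cells 8, against 15% of genes. In dendritic cells 8 were lower (25.3% of genes), in acinar cells 6 (21.1% of genes) and in red blood cells 9, where 77.3% of genes were lower too. Higher were 4 in smooth muscle cells (12.4% of genes), *Hspa1a*, *Hspa1b*, *Atf3* and *Junb*, then 3 in mesothelial cells (13.0% of genes), *Hspa1a*, *Hspa1b* and *Atf3*, and 2 in duct-like epithelial cells (13.2% of genes), *Atf3* and *Ier2*. In fibroblasts (13.3% of genes) and pericytes (16.8% of genes) both *Hspa1* genes were higher. In Schwann cells *Hspa1a* was higher (14.1% of genes) and *Hspa1b* lower (6.5% of genes). The *Hspa1b* calls in Schwann, B and dendritic cells rest on 0 UMIs against 6.29 CPM in the median class, and depth could not show them lower in Schwann and dendritic cells. Without *Hspa1b* the lower members were 7 in B cells, 7 in dendritic cells and 0 in Schwann cells. No member was called in endothelial cells, where 13.9% of genes were higher and 1.43% lower. No member was called higher in acinar cells (5.47% of genes), red blood cells (1.61%), T cells (9.24%), B cells (9.51%) or dendritic cells (11.1%). None was called lower in duct-like epithelial cells (3.76%), fibroblasts (1.97%), smooth muscle cells (3.7%), pericytes (11.3%) or mesothelial cells (1.6%).

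Other early response genes followed in part. Of 38 further genes of this kind, 37 reached 10 CPM. In smooth muscle cells 16 of them were higher (12.4% of all genes) and 2 lower (3.7%), with a median log2 fold over the median class of 0.62 against 0.06 over all genes. In endothelial cells 15 were higher (13.9% of all genes) and 0 lower (1.43%), with a median of 0.72 against 0.20. In acinar cells 24 were lower (21.1% of all genes) and 1 higher (5.47%), with a median of -1.54 against -0.54, and in T cells 15 were lower (15.6%) and 4 higher (9.24%), with a median of -0.53 against -0.01. In B cells 17 were lower (15% of all genes) and 6 higher (9.51%), with a median of -0.38 against -0.01. In red blood cells 35 were lower, where 77.3% of all genes were. Duct-like epithelial cells did not go with their immediate early sum, and dendritic cells were mixed. In duct-like epithelial cells 6 were higher (13.2%) and 5 lower (3.76%), with a median of 0.11 against 0.26. In dendritic cells 9 were higher (11.1%) and 14 lower (25.3%), with a median of -0.05 against -0.30. In fibroblasts 6 were higher (13.3%) and 1 lower (1.97%), with a median of 0.21 against 0.04. In mesothelial cells 8 were higher (13.0%) and 1 lower (1.6%), with a median of 0.22 against 0.12. Schwann cells had 8 higher (14.1%) and 3 lower (6.5%), with a median of 0.19 against 0.16. Pericytes had 12 higher (16.8%) and 3 lower (11.3%), with a median of 0.35 against 0.13.

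The most counted of these genes over all cells were *Zfp36* (816 CPM), whose protein speeds the decay of unstable mRNAs, *Klf2* (783 CPM), *Dusp1* (637 CPM), a phosphatase of MAP kinases, *Klf4* (636 CPM) and *Zfp36l1* (634 CPM). In smooth muscle cells *Gadd45g* at 412 CPM, *Ccn2* at 329 CPM and *Gadd45b* at 485 CPM were 17.4-fold, 16.1-fold and 12.6-fold the median class. The nuclear receptor genes *Nr4a2*, *Nr4a3* and *Nr4a1* were 7.65-fold, 4.91-fold and 4.28-fold, and the transcription factor genes *Maff* and *Cebpb* 4.21-fold and 4.16-fold. *Gadd45b* was higher still in dendritic cells, at 737 CPM. *Cebpb* was highest in mesothelial cells, at 456 CPM against 388 CPM in smooth muscle cells.

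In pericytes, mesothelial cells and smooth muscle cells most other chaperone genes were not called. Of 27 genes on that list 24 reached 10 CPM, and in pericytes, where the *Hspa1* sum was highest in the summed counts, 2 were higher (16.8% of all genes), *Dnajb1* and *Cryab*, and 3 lower (11.3%), with a median log2 fold of -0.07 against 0.13 over all genes. The pericyte class was too shallow to place the lower ones, *Hsph1*, *Fkbp4* and *Hsf2*, below the median class, since they had 0, 2 and 0 UMIs and could reach 39.5, 77.4 and 39.5 CPM by the exact interval, against 27.9, 55.2 and 17.9 CPM in the median class. The 5 most counted, *Hsp90ab1* (943 CPM in pericytes), *Hspa8* (461 CPM), *Hsp90aa1* (225 CPM), *Dnaja1* (204 CPM) and *Hspe1* (182 CPM), were 0.721-fold to 1.01-fold the median class there. In mesothelial cells 4 were higher (13.0% of all genes), *Dnajb1*, *Cryab* and the small heat shock protein genes *Hspb1* and *Hspb8*, and 0 lower (1.6%), with a median of 0.09 against 0.12. These shares lie near or below those of all genes. In smooth muscle cells 4 were higher (12.4% of all genes), *Dnajb4*, *Cryab*, *Hspb1* and *Hspb8*, and 1 lower (3.7%), *Hsph1*. The median there was 0.24 against 0.06, and *Dnajb4* was highest in this class, at 241 CPM. In red blood cells 22 of the 24 were lower, where 77.3% of all genes were. These called genes are named because they were called, after their values were seen. Of 17 upstream regulators and partners, 14 reached 10 CPM, and 0 were called higher in smooth muscle cells (12.4% of all genes) and 0 lower (3.7%).

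The genes whose log2 level over the 12 classes was most like the mean log2 level of the 8 immediate early genes were *Igf1r* and *Nfic* (r = 0.99 for each), *Camk1*, *Rhob* and *Ccn1* (r = 0.98 for each). Of these, *Rhob* and *Ccn1* are on the list of early response genes. Those most like the mean log2 level of *Hspa1a* and *Hspa1b* were *Etv1*, *Igfbp5*, *Enox1*, *Mark1* and *Pde1a* (r = 0.93 to 0.94). Both sets were picked for the highest r among all genes of at least 10 CPM, over 12 classes only, so a high r follows from the choice.

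Classes of under 30 cells are given for their level only. The immediate early sum was 13882 CPM (13103 to 14695) in 20 macrophages, 5969 CPM (5281 to 6722) in 21 neutrophils, 4825 CPM (4451 to 5221) in 8 islet cells and 4316 CPM (3364 to 5453) in 9 NK cells. Macrophages lay within the range of the high group, with *Fos* at 4354 CPM (3923 to 4819.9) and *Junb* at 2259 CPM (1952 to 2601). The 3 mast cells held 135 immediate early UMIs. Barcodes set aside because they met the panels of more than 1 class, 970 in number and possibly doublets, held 11619 CPM (11531 to 11708). The 427 cells that met none held 7560.0 CPM (7384 to 7739). The barcodes left out held less than the kept cells, at 6797 CPM in 752 of at most 800 UMIs, 6986 CPM in 111 of at least 15% mitochondrial UMIs and 3166 CPM in 14 of at least 100000 UMIs.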

How the data were processed

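The authors deposited 1 table of raw UMI counts per gene and barcode, made with Cell Ranger 7.1.0 against mm10 per the submitters' processing notes. All values were whole numbers. Libraries had been prepared with a droplet 3′ kit, so reads come from transcript ends. Barcodes with over 800 and under 100000 UMIs and under 15% mitochondrial UMIs were kept. Cells were gated by marker panels, and 12 markers shared between panels were left out of the gates after the data were seen. Barcodes that met several panels were set aside, except in these cases. Those that met the fibroblast panel and 1 other of the smooth muscle, pericyte, mesothelial and Schwann panels were given to the other class. Cells of those classes can thus also carry the fibroblast panel. Those that met the acinar and duct-like panels were given to acinar cells. Scrublet in scanpy 1.11.5 marked 592 kept barcodes (5.41%) as doublets, which were left out in an alternative only. UMIs were summed per class and given as CPM (per 1000000 UMIs) with exact Poisson intervals, shares with exact Clopper-Pearson intervals and ratios with exact conditional binomial intervals, all at 95% (Python 3.11.15, scipy 1.17.1). These cover counting error only and were tested on simulated counts. Folds used log2 of CPM plus 5. No test between samples was made, since there is 1 library. Genes named beside the members were the 5 highest of the early response and of the chaperone list, those past 4-fold of the median class where the matching sum was highest, and the 5 most alike in level over the classes. The members, lists, panels and settings were chosen with earlier results of these data known. Promoter windows came from RefSeq, and none was printed for *Egr1* and *Ier2*.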

Additional observations from a re-analysis of the deposited data

How the results depend on the processing

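Over 90 recomputed ratios to fibroblasts, from 10 ratios under 9 alternatives each, 60 moved by less than the counting interval, 29 moved by more and 1 changed direction. For the immediate early sum, the acinar ratio of 0.306 became 0.207 with the upper limit of 10000 UMIs in the study's methods and 0.302 with a mitochondrial limit of 5%. It became 0.481 without acinar and red blood cell marker UMIs, 0.243 as a mean over cells and 0.242 after thinning. With the free RNA estimate it became 0.321. That change came from the fibroblast level alone, since nothing was subtracted from acinar cells, whose markers scale the estimate. The smooth muscle ratio of 1.19 became 1.06 with that upper limit, 1.23 with the 5% limit, 1.26 with 1 more marker in each gate, 1.02 as a mean and 1.02 thinned. The mesothelial ratio of 0.953 became 0.859 with the upper limit, 0.964 with a lower limit of 1500 UMIs, 0.815 as a mean and 0.826 thinned. The endothelial ratio of 1.13 became 1.18 with 1 more marker, 1.11 as a mean and 1.09 thinned, and the T cell ratio of 0.133 became 0.127 with 1 more marker, 0.0859 with the estimate subtracted and 0.125 thinned. For the *Hspa1* sum, the acinar ratio of 0.0726 became 0.105 with the upper limit, 0.114 without marker UMIs and 0.173 thinned, the smooth muscle ratio of 2.63 became 3.67 thinned, the mesothelial ratio of 2.97 became 2.52 as a mean and 2.57 thinned, and the T cell ratio of 0.0482 became 0 with the estimate subtracted. The endothelial *Hspa1* ratio of 0.497 became 0.695 as a mean over cells and 1.00 thinned, where its direction changed. The cause was not tested. The count of members called at 2-fold, out of 10 in each of the 12 classes, was 54, and 53 to 63 over 8 alternatives. Of the 54, 9 were lower in red blood cells, where 77.3% of all genes were lower too. By class and direction, the share of all genes called ran from 1.43% (lower in endothelial cells) to 77.3%. The count is given for its dependence on the settings only. *Atf3* was highest in mesothelial cells in 10 of 10 settings, *Fos* in smooth muscle cells in 7 and the immediate early sum in smooth muscle cells in 6. Of 1296 recomputed levels 345 moved past their counting interval, as did 17 of 24 shares of cells without thinning. No paired analysis was possible because the data are 1 library, and no replicate could be left out. Intervals cover counting error only and leave out the spread between animals, which were pooled. At this depth the *Hspa1* levels of acinar, red blood, T, B and dendritic cells were not told apart, and the pericyte, dendritic and duct-like epithelial classes rest on 36 to 50 cells.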
